A study of Homo sapiens with 12 samples.

Results

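Peaks of trimethylated lysine 9 of histone H3 (H3K9me3) at the ends of human chromosomes are described here in HCT116, an established colorectal carcinoma cell line, before and after methionine restriction. A peak was taken as a chromosome-end peak where its midpoint lay in the first 2 Mb or the last 2 Mb (build hg19) of chromosomes 1 to 18, 20 to 22 and X, with the end of a chromosome set at the highest region end in any of the 8 peak lists. This gave 477 end peaks among the 4723 H3K9me3 peaks on chromosomes 1 to 22 and X, and among 5333 listed in all. The control cells were grown in RPMI-1640 with fetal bovine serum and taken at 0 hr. The restricted cells were washed and kept for 24 hr in methionine-free RPMI-1640 with serum, which the labels do not describe as dialysed. H3K9me3 and monomethylated lysine 9 (H3K9me1) were each profiled by chromatin immunoprecipitation with sequencing (ChIP-seq) in 2 libraries per condition, lettered A and B. For the H3K9me1 libraries the condition was taken from the time in their titles, since their labels give the treatment less fully. Control cells at 24 hr were not among the samples, so an effect of restriction and one of time cannot be told apart. The labels do not state whether A and B were grown apart, so the p-values measure a spread that may be technical.

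Methionine is the source of S-adenosylmethionine, the methyl donor of histone methyltransferases, and the design asks how H3K9 methylation is placed before and after its depletion. H3K9me3 is written by enzymes such as SUV39H1, SUV39H2 and SETDB1, is bound by heterochromatin protein 1, and marks constitutive heterochromatin. Sequence next to the telomere repeats, the subtelomere, is known for blocks duplicated between chromosomes, satellite-like repeats and clusters of multigene families. Some subtelomeres hold KRAB zinc finger genes, at which H3K9me3 is known to be laid down. The H3K9me3 libraries held 33503018 to 35736289 reads and their inputs 23523460 to 27843707, per the file headers, and the H3K9me1 libraries 30952210 to 39452512. With 2 libraries against 2, an exact two-sided permutation test cannot give a p below 0.333, so no single value could pass 0.05.

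Chromosome ends were dense in H3K9me3 peaks in all 4 libraries, and neither their number nor their density separated the conditions. In the order control A, control B, restricted A, restricted B, which is kept wherever 4 values are given, end peaks numbered 154, 84, 176 and 63. The control libraries thus lay between the restricted libraries (119 ± 49.5 against 119.5 ± 79.9, SD, n = 2 each; exact permutation p = 1). Restricted over control was 1.14 within letter A and 0.75 within letter B. Within H3K9me3 each letter was sequenced on a lane of its own, so these are also within-lane values. The end peaks covered 152.5, 74.6, 189.5 and 61.1 kb (exact permutation p = 1). All peaks on chromosomes 1 to 22 and X numbered 1372, 797, 1880 and 674, in the same order of size as the end peaks.

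Relative density is the covered share of the end windows divided by the covered share of chromosomes 1 to 22 and X in the same library. It scales each library by the length called there. It was 4.10 (A) and 3.07 (B) in control cells and 4.17 (A) and 3.34 (B) after restriction (exact permutation p = 0.667). Both A libraries, whose lists were longer, still lay above both B libraries. The ranges of the conditions overlapped, while within a letter restricted over control was 1.02 in A and 1.09 in B. With the letter as a replicate block the mean log2 ratio was 0.07 (exact sign-flip p = 0.5, the smallest that 2 pairs allow). The next stretch inwards, 2 to 10 Mb from the end, had 0.916, 0.567, 0.798 and 0.765, so the ends were denser in 4 of 4 libraries (exact sign-flip p = 0.125, two-sided, the smallest that 4 libraries allow). With sequence within 5 Mb of the centromere gaps taken out of the divisor, the end density was 6.53, 6.93, 5.83 and 6.60. These values no longer put both A libraries above both B libraries. The difference between the condition means turned from 0.169 to -0.518 (exact permutation p = 0.667).

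As a share of the list, the end peaks were 11.2% (95% Wilson interval 9.66% to 13%) in control A and 10.5% (8.59% to 12.9%) in control B. After restriction they were 9.36% (8.13% to 10.8%) for letter A and 9.35% (7.37% to 11.8%) for letter B. Both restricted shares lay below both control shares (exact permutation p = 0.333, the smallest possible), but the intervals overlapped. These intervals cover counting error only. Among peaks with a −log10 q of at least 5, the difference in share was 3.51 percentage points in the other direction.

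Over short-arm and long-arm ends together, peak density rose towards the end of the chromosome in every library. In the outermost 0.1 Mb the relative density was 18.8, 9.91, 17.1 and 6.75. From 0.1 to 0.5 Mb it was 5.80, 5.71, 5.65 and 4.54, and from 0.5 to 1 Mb it was 3.11, 2.12, 4.21 and 3.56. Between 4 and 10 Mb it had fallen below 1, at 0.642, 0.408, 0.699 and 0.512. The outermost 0.5 Mb was 12.6 ± 2.71 times as dense as the stretch from 4 to 10 Mb (SD, n = 4 libraries). The 4 outermost values fell by letter rather than by condition, with both A libraries above both B libraries, and they rest on 33, 14, 27 and 6 peaks. At short-arm ends alone, the outermost 0.1 Mb was less dense than 0.1 to 0.5 Mb in both B libraries. The values were 3.92 against 5.59 in control B and 2.04 against 6.81 in restricted B. Counted from the first listed region in place of position 1, they were 9.87 against 4.84 and 7.43 against 6.36.

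**Figure D1:**
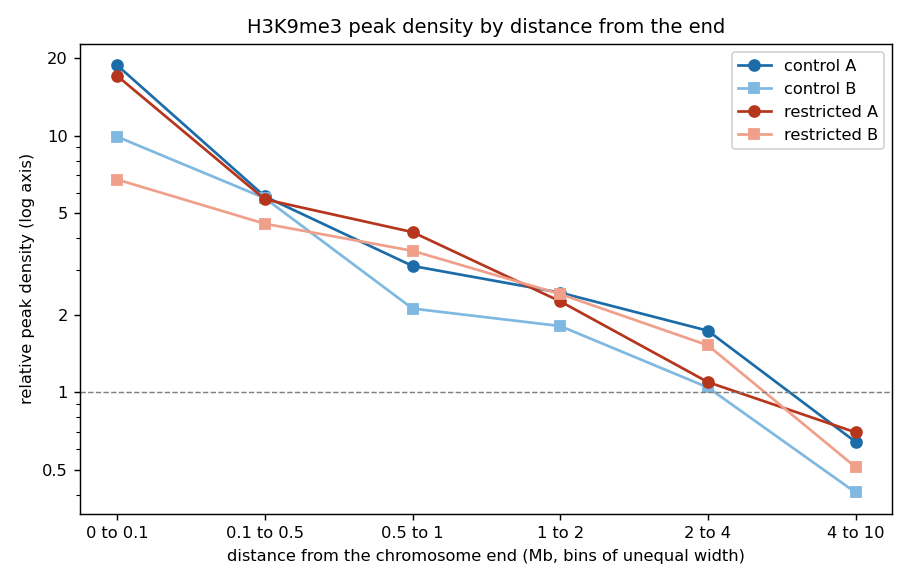
Relative H3K9me3 peak density (log axis; 1 is the average of the library, dashed) in 6 bins of distance from the chromosome end, with 1 line per library. The lines fall from 6.75 to 18.8 in the outermost 0.1 Mb to 0.408 to 0.699 between 4 and 10 Mb, and those of the conditions cross.

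Long-arm ends were denser than short-arm ends in 4 of 4 libraries (exact sign-flip p = 0.125, the smallest possible). The windows were not set alike, since short arms were counted from position 1 and long arms from the highest listed region end. Only short-arm windows thus include end sequence without listed regions. The first listed region began at position 10034 on chromosome 1 and at 61518 on chromosome 11. The relative density at long-arm ends was 5.06 and 3.57 in the controls and 4.87 and 3.69 in the restricted libraries (exact permutation p = 1). At short-arm ends it was 2.85 and 2.43 in the controls and 3.26 and 2.90 in the restricted libraries. Both restricted values at short-arm ends were above both controls (exact permutation p = 0.333), but by number of peaks per Mb the difference of 0.44 became -0.19. The short arms of the 5 acrocentric chromosomes, 13, 14, 15, 21 and 22, hold no region of either mark in their first 2 Mb and were left out of the length, which leaves 39 end windows of 78 Mb. The first 2 Mb of X hold no listed region either, but were kept in the length, since the H3K9me1 lists lack the whole of X.

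Single ends differed widely. Of the 39 windows, 26 had a peak in all 4 libraries, 7 in 3, 2 in 2 and 3 in 1, and the short-arm end of X had none. The 5 fullest windows of each library held 35.1%, 35.9%, 42.2% and 38.8% of its end-peak length. By the mean relative density over the 4 libraries, the order was led by 8q (18.6), 7q (10.7), 4p (9.26), 11p (8.70), 14q (7.58), 4q (7.35) and 10q (6.10). At the foot were 6p (0.371), 2p (0.346), 3p (0.168), Xq (0.111) and Xp (0). The libraries' ranges of neighbours in this order overlapped, including those of 8q and 7q.

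The end of 8q, which holds a cluster of zinc finger genes, was the fullest in 3 libraries. Peaks covered 19.8, 12.6, 23.5 and 6.24 kb there. Its relative density of 20.8, 20.2, 20.2 and 13.3 was lower in each restricted library than in either control, by a small margin in A. The end of 4p, with another zinc finger cluster, had 9.01, 4.17, 12.8 and 4.64 kb. In relative density 4p had 9.45 and 6.70 in the controls and 11 and 9.91 in the restricted libraries, which do not overlap. The end of 7q had 13.3, 4.06, 14.8 and 4.47 kb, with densities of 13.9, 6.53, 12.7 and 9.55 that overlap between the conditions.

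At 11p, peaks covered 4.10, 3.77, 10.9 and 7.08 kb. The relative density of 4.30 and 6.06 in the controls was below the 9.32 and 15.1 of the restricted libraries. The end of 14q, where the immunoglobulin heavy-chain variable genes lie, had similar numbers of peaks in all libraries, with 9, 7, 8 and 7, and densities of 6.33, 8.55, 6.07 and 9.38.

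The ends of 4q and 10q carry the near-identical D4Z4 macrosatellite arrays, whose units hold copies of the DUX4 gene and which are known for H3K9me3. Reads from one such array cannot be placed apart from the other with certainty, and how the authors' alignment treated them is not given in the sources used here. At 4q the peaks covered 7.30, 2.22, 18 and 1.27 kb, with restricted A far above and restricted B below all the others. At 10q they covered 6.49, 3.43, 5.99 and 3.26 kb, a split by letter. The widest 4q region, chr4:191005642-191011169, was called in both A libraries only, over 1.39 kb in control A and 5.53 kb in restricted A. The widest 10q region, chr10:135478130-135483247, covered 2.46, 1.95 and 5.12 kb in control A, control B and restricted A and was not called in restricted B.

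**Figure D2:**
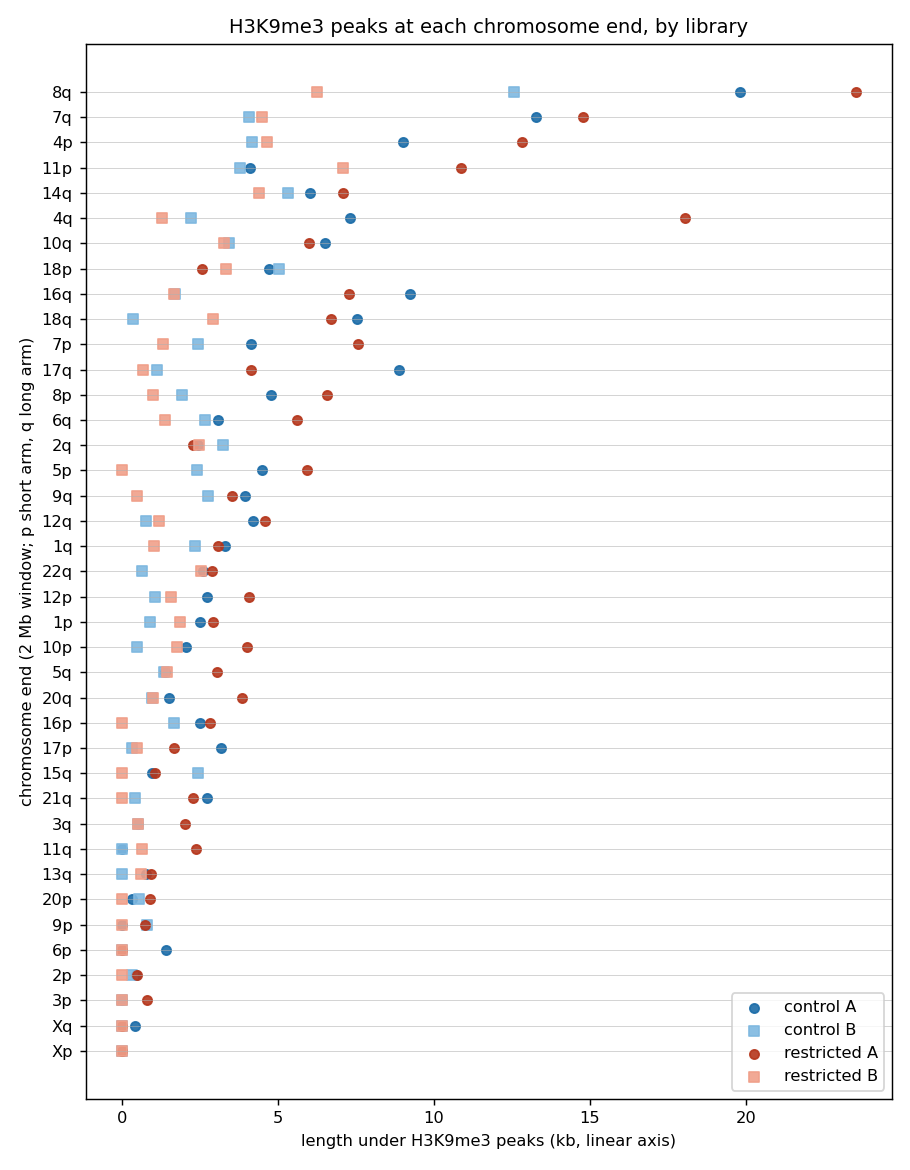
Length under H3K9me3 peaks (kb) at each of the 39 chromosome ends, ordered by mean relative density, with 1 point per library. The points of 8q reach from 6.24 to 23.5 kb, the A libraries (circles) are mostly right of the B libraries (squares), and Xp is at 0 in all 4.

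Ends with zinc finger symbols among their outermost 20 protein-coding genes were on average denser than ends without, in each library. Counted by symbols beginning ZNF or ZFP among the outermost 20 protein-coding genes in the gene order of GRCh38.p14 (RefSeq), 12 ends had at least 1 such gene, with 30 symbols in all. They were led by 12q with 7 (among them ZNF10, ZNF140 and ZNF268), 8q with 6 (ZNF7, ZNF16, ZNF34, ZNF250, ZNF251 and ZNF517) and 4p with 5 (ZNF141, ZNF595, ZNF718, ZNF721 and ZNF732). The mean relative density of the 12 ends was 7.28, 4.41, 7.11 and 4.67, against 2.69, 2.48, 2.86 and 2.75 at the 27 others. The 12 include 8q, at 20.8, 20.2, 20.2 and 13.3, which raises their mean in each library. The medians were 7.23, 2.91, 5.39 and 2.90, against 2.61, 1.26, 2.03 and 1.07. All 12 had a peak in every library, as did 14 of the 27. Across the 39 ends, the Spearman correlation of the symbol count with density was 0.559, 0.261, 0.539 and 0.378, as a description over ends that share libraries. Counted over the outermost 10 genes it was 0.490, 0.272, 0.439 and 0.221, and over the outermost 40 it was 0.526, 0.245, 0.521 and 0.377. The densest of the ends without such a symbol were 7q, 11p and 14q, and 12q itself had a mean density of 3.01. Gene positions of hg19 were not used, so no peak is assigned to a gene, and a counted gene may lie outside the 2 Mb window. The place of the listed genes, such as OR9G9 as the outermost of 11p, was not checked by coordinates. The symbols alone do not tell KRAB zinc finger genes from others.

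The local background, which can be read back from the pileup and fold of the H3K9me1 regions, also differed between ends. It was highest at 16q, 17q and 8q, where it averaged 2.45, 2.39 and 2.36 times the level of the library. Each of these ends is among the 12 with zinc finger symbols. At 10q it was 0.975. Across the 37 ends with such a value, its Spearman correlation with H3K9me3 density was 0.393, and 0.309 over the 34 ends without those 3. The part of this background in the density of these ends was not tested.

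Between the conditions, 8 end windows were higher and 6 lower by relative density in each restricted library than in either control. Of the 35 end windows with a peak in at least 2 libraries, these are 22.9% and 17.1%, beside 17% and 10.6% of the 601 windows of 2 Mb tested over chromosomes 1 to 22 and X. The higher ones were 3q, 4p, 5q, 10p, 11p, 11q, 12p and 20q, and the lower ones 1q, 2p, 8q, 9q, 15q and 16p. In limma, fitted on log2(relative density + 0.1) with Benjamini-Hochberg adjustment, 0 of the 35 end windows and 0 of the 601 windows (0%) passed an adjusted p of 0.05. Unadjusted p-values under 0.05 numbered 0 among the end windows and 12 among all. The median log2 difference was 0.02 over the end windows and 0.03 over all.

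The smallest p at an end was that of 11q, which had no peak in either control and 2.37 and 0.633 kb in restricted A and B (limma log2 difference 4.14, SE 1.86, adjusted p = 0.880). With both controls at 0, the size of that difference is set by the added 0.1 and is no measure of the fold. At 11p the log2 difference was 1.2 (SE 0.58, limma adjusted p = 0.880), and at 10p it was 1.41 (SE 0.86, limma adjusted p = 0.880). On the lower side, 9q had a log2 difference of -1.26 (SE 0.81, limma adjusted p = 0.901). There the densities were 4.14 and 4.44 in the controls and 3.02 and 0.980 in the restricted libraries. At 15q, with 0.957 and 2.43 kb in the controls and 1.04 and 0 kb in the restricted libraries, the difference was -2.74 (SE 1.78, limma adjusted p = 0.901). At 8q it was -0.32 (SE 0.50). None of these differences passed the test. In relative density the conditions do not overlap at these 6 ends, though in kb they do at 10p, 9q, 15q and 8q. With the letter as a replicate block, limma called 26 of the 601 windows and 0 at the ends.

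**Figure D3:**
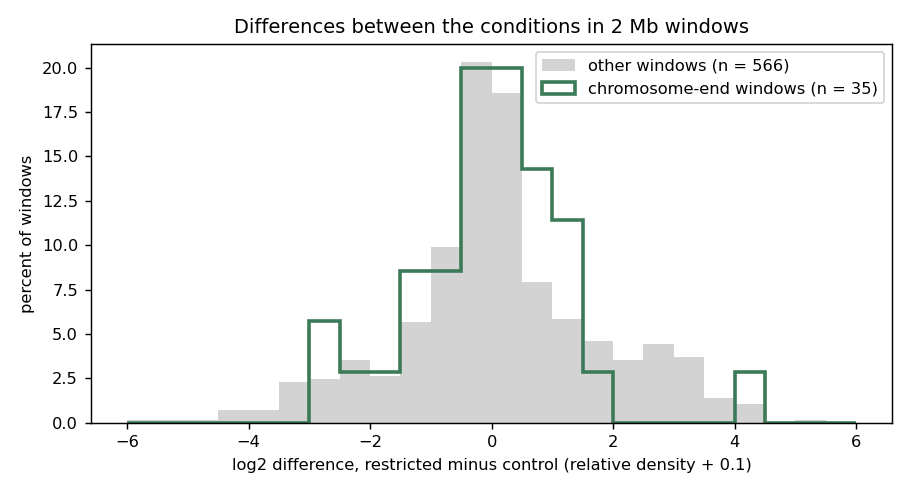
Log2 differences (restricted minus control, relative density + 0.1) of the 35 chromosome-end windows (outline) and of all other windows in the fit (filled), as a percent of each set. Both sets centre near 0, and the end window farthest to the right is 11q, at 4.14, a size set by the added 0.1 since both controls are at 0.

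Within a letter, the ends did not move together. In relative density, restricted A was above control A at 16 ends and below it at 22, and restricted B was above control B at 19 and below it at 16. Both letters moved up at 8 ends and down at 9, they moved in opposite directions at 18, and at 4 at least 1 letter did not move.

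After merging of peaks up to 1 kb apart over the 4 libraries, the ends held 285 of 3228 merged regions. Found in all 4 libraries were 19 of the 285 (6.67%, beside 4.65% of all merged regions). Regions in both controls and neither restricted library numbered 10 (3.51%, beside 2.14%), and regions in both restricted libraries and neither control numbered 8 (2.81%, beside 2.45%). Both A libraries alone shared 24 regions (8.42%, beside 5.17% of all) and both B libraries alone 2 (0.702%, beside 0.713%). In a single library were 177 regions, 62.1% of those at the ends, beside 73.9% of all.

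Counted as regions, those at chromosome ends were called again in at least 1 other library more often than those elsewhere, in 4 of 4 libraries. The share was 61.6% at ends against 47.4% elsewhere in control A, and 73.2% against 58.8% in control B. In restricted A it was 51.1% against 34.8%, and in restricted B it was 82.3% against 63.9% (exact sign-flip p = 0.125, the smallest possible). The base-pair Jaccard index at ends was 21.6% between the controls, 16.3% between the restricted libraries and 16.5% to 26.2% across conditions, the highest being that of control A with restricted A. By this measure of shared length the ends were not ahead: elsewhere the index was 28.7% between the controls, 15.4% between the restricted libraries and 19.1% to 24.1% across conditions. It was higher elsewhere than at the ends in 4 of the 6 pairs, the exceptions being both A libraries and both restricted libraries.

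**Figure D4:**
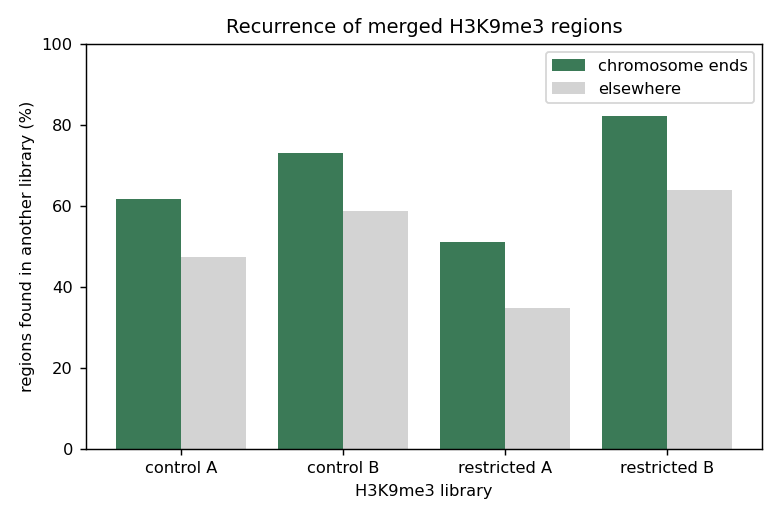
Percent of each library's merged H3K9me3 regions that were also called in at least 1 of the other libraries, at chromosome ends (green) and elsewhere (grey). The end bar is the taller in each of the 4 libraries, from 51.1% in restricted A to 82.3% in restricted B.

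The 19 regions found in all 4 libraries lay at 12 ends, with 3 at 8q and 2 each at 4p, 7q, 11p, 14q and 18p. Of these, 12 lay within 0.5 Mb of the end, and the median width was 2.67 kb. Called length was above both controls in both restricted libraries in 5 of the 19 and below them in 0, beside 10.7% and 14% of the 150 such regions over all chromosomes. The fold over background, as the authors' peak caller gave it, was above in 1 and below in 1, beside 20% and 12%. These counts were not tested. The widest were chr8:146201930-146208178, with 2.53, 2.35, 2.46 and 0.528 kb under peaks, and chr8:146063895-146069846, with 2.65, 3.09, 5.92 and 0.375 kb. At 4p, chr4:434349-439110 had 1.01, 1.04, 4.76 and 1.82 kb. At 11p, chr11:1436513-1440564 had 1.85, 1.58, 3.61 and 4 kb, with folds of 2.65, 3.68, 4.80 and 3.12. At 14q, chr14:106464940-106467612 had 2.27, 1.67, 2.54 and 1.34 kb and folds of 3.36, 3.55, 3.65 and 3.28. At each of these 5 places the called length varied more between libraries, as highest over lowest, than the fold did.

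Of the 19, 4 had a −log10 q of at least 5 in every library, and these combined a deep pileup with a low fold. Their pileup was 141.6 to 2690 reads and their fold 1.59 to 2.61, over an implied background of 56.1 to 1398. Among end peaks, the highest −log10 q of each library was at the same place, chr3:196625451-196625970 near the end of 3q. It was 140, 117, 187 and 68.5, while peaks elsewhere reached 165, 157, 655 and 200. The fold there was 1.83, 1.76, 1.92 and 1.59. The others were chr7:157939486-157942075, chr4:190942627-190943938 and chr18:111989-112525, the last named here after its values were seen. A neighbour on 18p, chr18:106946-110742, had folds of 1.45, 1.58, 1.21 and 1.48 over a background of 427.2 to 601 reads. The 15 other regions found in all 4 libraries had folds of up to 4.80. Whether sequence that is present in more copies than hg19 holds sets these deep pileups was not tested.

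Regions found in 1 condition only had folds in the range of other end peaks and −log10 q of at most 4.31. The control-only regions were 0.637 to 1.74 kb wide, with folds of 2.56 to 3.93 and −log10 q of at most 3.46. Among them were chr9:139649592-139651328, chr16:90060714-90062445, chr2:242525204-242526878, chr20:62916275-62917511, chr8:156633-157824 and chr14:106597979-106599038, and 8q held chr8:145880099-145881190 and chr8:146095439-146096425. At chr16:90060714-90062445 the controls had 1.73 and 1.35 kb with folds of 2.81 and 2.85. The restricted-only regions were 0.442 to 2.74 kb wide, with folds of 2.44 to 4.01 and −log10 q of at most 4.31. The widest was chr11:134034985-134037724 on 11q, with 1.91 and 0.633 kb and folds of 3.42 and 3.26. Others were chr2:241357803-241358970, chr9:139667299-139668394 and chr6:169240369-169241379. The ends of 2q and 9q thus held regions of both kinds.

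Fold enrichment did not separate end peaks from the rest or the conditions from each other. The median fold of the end peaks was 2.87, 3.11, 3.27 and 3.06 (exact permutation p = 0.667), against 3.05, 3.01, 3.45 and 3.06 elsewhere. End peaks with a fold of at least 4 numbered 5, 4, 27 and 2, so that restricted A stood apart from its own partner. In restricted A the highest end fold was 6.05, at chr2:242838668-242838996 on 2q. In the others it was 4.42 at chr20:764399-764700, 4.24 at chr21:48045332-48045754 and 4.40 at chr14:107119796-107120311. End peaks with a −log10 q of at least 5 numbered 11, 8, 20 and 10 (exact permutation p = 0.667). The peak just inside the 2 Mb limit lay 28.1 kb within it on chromosome 17, and the nearest outside lay 11.6 kb beyond it on chromosome 22, with folds of 2.34 and 3.35, both in control A.

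The share of end H3K9me3 peaks that touched a listed H3K9me1 region was higher with the lists of the restricted libraries, in a comparison that was chosen after the data were seen. In full, these lists hold 661085, 454516, 387649 and 760945 regions. Of chromosomes 1 to 22 and X, they have regions on 20, 10, 21 and 19. They were called at a weak p cutoff, so it is not certain that they are comparable between the conditions. H3K9me1 carries a single methyl group on this residue and is a substrate for the enzymes that write H3K9me3. Of the end H3K9me3 peaks on chromosomes that the H3K9me1 list of the same time and letter holds, 19 of 150 (12.7%) touched an H3K9me1 region in control A and 3 of 31 (9.68%) in control B. In restricted A it was 143 of 175 (81.7%), and in restricted B 41 of 56 (73.2%). The means were 11.2% ± 2.11 and 77.5% ± 6.01 (SD, n = 2 each; exact permutation p = 0.333, the smallest possible). The lists do not overlap in this share, and the difference was larger than the spread within either condition.

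By length, H3K9me1 covered 3.13% and 1.97% of the end-peak bases in the controls and 46.7% and 35.8% in the restricted libraries. It covered 12.9%, 15.4%, 5.91% and 14.9% of the end windows as a whole. End peaks therefore held less H3K9me1 than the windows around them in the controls, at ratios of 0.242 and 0.128, and more in the restricted libraries, at ratios of 7.89 and 2.40. The amount of H3K9me1 called at the ends did not itself follow the condition, and restricted A, with the highest share under peaks, had the lowest share of the windows.

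The share went with the H3K9me1 list and less with the H3K9me3 list. End peaks of the control libraries touched the H3K9me1 regions of the restricted libraries in 54.3% to 63.8%. End peaks of the restricted libraries touched those of the controls in 14.1% to 24.1%. In these crossed comparisons the lists of the 2 marks do not share an input, whereas those of 1 time and letter do. With the other letter of the same time, the shares were 16.4%, 3.70%, 66.5% and 57.1%. On the 8 chromosomes that all H3K9me1 lists hold, they were 15.9%, 10.3%, 81.3% and 73.1%.

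**Figure D5:**
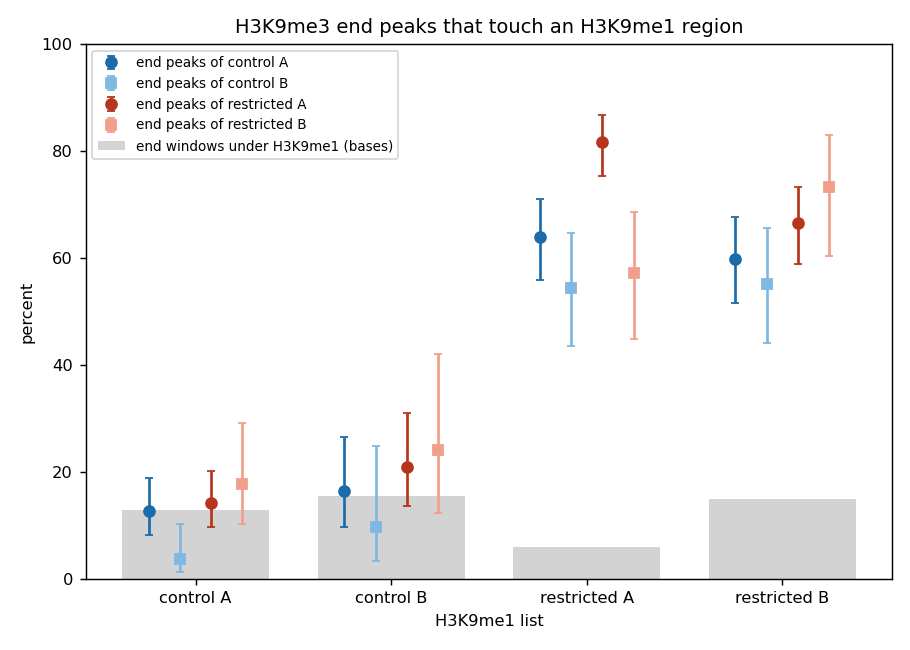
Percent of chromosome-end H3K9me3 peaks of each library (points, with 95% Wilson intervals) that touch a region of each of the 4 H3K9me1 lists (x axis), over the percent of the end windows that list covers (grey bars). All points over the control lists are at 24.1% or below, and those over the restricted lists at 54.3% or above.

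The pattern was spread over the ends. In restricted A, 34 of the 35 ends with a peak on listed chromosomes had at least 1 touched peak, and in restricted B 22 of 24. In the controls these were 15 of 32 and 2 of 17. At 8q, 2 of 19 peaks were touched in control A, 11 of 12 in restricted A and 3 of 6 in restricted B. At 7q the counts were 3 of 9, 0 of 3, 11 of 12 and 4 of 5, and at 14q, which the control B list lacks, 1 of 9, 7 of 8 and 5 of 7. In the outermost 0.1 Mb the share was 6.45% and 11.1% in the controls and 76.9% in restricted A, and in restricted B it was 3 of 6 peaks. Among the regions found in all 4 libraries, H3K9me1 was listed over 2 of 19 and 1 of 6 with the control lists and over 14 of 19 and 12 of 15 with the restricted lists.

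H3K9me3 peaks away from the ends had the same direction, with 19.7% and 34.1% touched in the controls and 71.8% and 67.8% in the restricted libraries. In percentage points, the ends minus these values came to -7.02 and -24.4 in the controls and to 9.94 and 5.46 after restriction (exact permutation p = 0.333, the least that 2 against 2 can give). The H3K9me1 lists were called at a weak threshold, and most of their regions are short. Regions that touched end peaks had a median length of 349 and 284 bp in the controls and 654 and 659 bp in the restricted libraries, against 367, 386, 322 and 374 bp for all. With H3K9me1 regions of −log10 p of at least 2 only, the shares were 1.33%, 0%, 19.4% and 10.7%. With regions of at least 500 bp only, they were 2.00%, 0%, 56.0% and 46.4%.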

How the data were processed

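Peak lists of the 4 H3K9me3 and 4 H3K9me1 libraries were used. Build hg19, MACS2 (2.1.1.20160309), Bowtie2 (2.1.0) and SAMtools (1.5) are named in the submitters' processing notes. Each library was called in broad mode against its matching input, per the file headers, for H3K9me3 with all duplicates kept and a weak q cutoff of 0.1, and for H3K9me1 with a weak p cutoff of 0.1 and at most 1 read per position. The deposited pileup is a signal (read coverage), the fold as deposited is a ratio to the local background, and p and q were deposited as −log10 values. The authors' caller averaged each over the region. The implied background was computed as (pileup + 1) / fold − 1.

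The members, windows and lists were chosen with earlier results of these data known. Single values were compared by exact permutation over the 6 relabellings. Windows of 2 Mb entered where at least 2 libraries had a peak, and were fitted with limma 3.58.1 (R 4.3.3; trend and robust) on log2(relative density + 0.1). Eligible for naming were end windows with a peak in all 4 libraries or without overlap between conditions. The end peaks of highest q and of highest fold per library were eligible as well. Of 39 qualifying regions (in all 4 libraries, in 1 condition only, or the 5 widest) the 30 widest were eligible. Not all eligible windows and regions are given in the text. Touching means an overlap of at least 1 bp. Gene order came from GRCh38.p14, with no coordinates. The interval code and the fit were tested on simulated data. The fit was required to find changed windows only at a small set spread. Its power at the spread of the real windows is not reported here. Python 3.11.15, pandas 2.3.3 and scipy 1.17.1 were used. The alternatives were stricter thresholds, other windows, merging distances, scalings, pseudocounts and filters, the letter as a block, and leaving out each library. Peaks on chromosomes 19 and Y and on unplaced sequences were not counted as end peaks.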

Additional observations from a re-analysis of the deposited data

How the results depend on the processing

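Of 149 alternatives over 14 results, 105 kept the direction or the count, 18 turned the direction and 26 moved a count or value, and the cause was not tested. The difference in end-peak number (0.5 peaks, restricted minus control) became -3.5 with 1 Mb windows and -8.5 with 674 peaks per library, and -0.11 as a mean log2 ratio with the letter as a replicate block. Covered length (11.7 kb) became -7.29 kb with equal numbers of peaks. Relative density (0.169) became -0.594 by peaks per Mb and -0.518 with the divisor without 5 Mb beside centromere gaps. The share of peaks (-1.53 points) became 3.51 for a −log10 q of at least 5. The long-arm difference (-0.04) became 0.16 and 1.63 for a −log10 q of at least 2 and 5, and the short-arm difference became -0.19 by peaks per Mb. Ends higher or lower without overlap (8 and 6) numbered 3 and 3 for a −log10 q of at least 2, 5 and 1 for 5, and 4 and 3 with 1 Mb windows. Control-only regions (10) numbered 4 and 1 for a −log10 q of at least 2 and 5, 6 without 8q, 16q and 17q (added after seeing the data), and 3 with 50% of the merged region required. Restricted-only regions (8) numbered 1 and 1 for those 2 thresholds, 5 with 1 Mb windows and 4 with equal numbers of peaks. The ratio of the outermost 0.5 Mb to 4 to 10 Mb (12.6) became 18.8 for a −log10 q of at least 2, and for 5 it gave no value. Leaving out 1 library at a time gave -56 to 57 for peak number, with a negative sign without control B and without restricted A, -52.5 to 76.0 kb for length and -0.344 to 0.682 for density. It gave -0.784 to 0.709 for the long-arm density, 8 to 16 and 9 to 14 for the ends without overlap, and 14 to 68 control-only and 10 to 94 restricted-only regions. These counts compare 2 libraries with 1, a rule that is easier to meet than 2 against 2, so they are not like the main counts. Leaving out 1 library gave 62.0 to 70.5 points for the share of end peaks touching H3K9me1 (66.3). That share's difference was 14.4 points with H3K9me1 regions of −log10 p of at least 2, and 42.4 to 68.5 points under its other alternatives, all added after seeing the data. No end window was called by limma under any setting run. With the letter as a replicate block limma called 26 windows, 0 of them at ends. The labels do not say that same-lettered libraries are paired, but within H3K9me3 they share a lane; their deviations correlated at 0.104 over all windows and -0.182 over the end windows. A fit on end windows alone was not run.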
